A study of Mus musculus with 8 samples.

Results

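The cytosolic ribosomal protein genes were described in mouse bone marrow-derived macrophages, by mature mRNA and by pre-mRNA. They were taken by symbol: every row named Rpl or Rps with a number, plus Rpsa, Rplp0, Rplp1 and Rplp2, without the Rps6k kinases and without symbols marked as pseudogenes. The rule found 81 of the 11415 genes of the table, and all 81 passed the filter on low values in both measures. By role they were 30 small-subunit proteins, 41 large-subunit proteins, the 3 stalk proteins Rplp0, Rplp1 and Rplp2, and 7 paralogs, retrogene-like copies or other genes that share the name (Rpl7l1, Rpl22l1, Rps27l, Rps19bp1, Rpl36al, Rps27rt and Rpl37rt). The annotation lists Rpl37rt as a transcribed processed pseudogene, though its symbol does not mark it as one. The pattern leaves out subunits such as Rack1 (listed as Gnb2l1) and Fau, which are given separately.

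Cells of all 4 groups carried the genotype IL10-/-RAG2-/- on strain 129S6/SvEvTac and were grown for 5 days in medium conditioned with M-CSF, the macrophage growth factor. Each group had 2 libraries, from separate macrophage pools. The groups were LPS at 1 ng/mL for 195 min with IL-10 at 1 ng/mL present all along (IL-10 throughout), LPS for 195 min with IL-10 in the last 30 min only (late IL-10, dose not restated in the labels), LPS for 195 min alone, and untreated cells. LPS, from the outer membrane of Gram-negative bacteria, signals through TLR4, and IL-10 is a cytokine that restrains macrophage activation. The age and sex of the mice were not given in the labels.

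Ribosomal proteins are assembled with ribosomal RNA in the nucleolus into a small subunit, which decodes mRNA, and a large subunit, which forms peptide bonds. Their mRNAs are among the most abundant of a cell and belong to the TOP class: they begin with a run of pyrimidines through which mTORC1 and the RNA-binding protein LARP1 control their translation. Most of the genes have left many processed pseudogenes in mammalian genomes, and many carry small nucleolar RNAs in their introns.

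The start regions of 10 members are shown because 9 of them had the largest called rises with LPS by pre-mRNA or mRNA and Rpl7a had the longest pyrimidine run. Each is the 30-base window around the annotated RefSeq start (GRCm38.p6, the start at base 16), 5′ to 3′, with the longest run of C and T in capitals.
Rpl24, chr16:55966260-55966289, plus strand: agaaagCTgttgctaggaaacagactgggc
Rpl26, chr11:68901551-68901580, plus strand: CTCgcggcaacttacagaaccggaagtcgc
Rps24, chr14:24490663-24490692, plus strand: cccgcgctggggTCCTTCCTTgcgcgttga
Rps15a, chr7:118116133-118116162, minus strand: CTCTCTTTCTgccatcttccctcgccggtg
Rpl4, chr9:64173372-64173401, plus strand: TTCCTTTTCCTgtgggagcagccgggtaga
Rps3a1, chr3:86142654-86142683, minus strand: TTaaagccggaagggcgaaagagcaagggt
Rpl38, chr11:114668565-114668594, plus strand: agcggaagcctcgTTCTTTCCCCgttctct
Rpl27, chr11:101442230-101442259, plus strand: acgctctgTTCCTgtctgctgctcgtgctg
Rpl7l1, chr17:46782642-46782671, minus strand: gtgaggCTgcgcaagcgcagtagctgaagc
Rpl7a, chr2:26910792-26910821, plus strand: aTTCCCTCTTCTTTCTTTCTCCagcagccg
A run of at least 7 C or T lay in this window in 33 of the 64 members that have a RefSeq start window (51.6%), against 22.0% of 8802 genes of the table and 21.3% of all 27025 genes with a window. Such a run was present in Rps24, Rps15a, Rpl4, Rpl38 and Rpl7a and not in Rpl24, Rpl26, Rps3a1, Rpl27 or Rpl7l1. A gene with several starts was counted by its longest run, and annotated starts can lie some bases away from the start used in macrophages. The letters CCGGAA on either strand, the core bound by ETS factors such as GABPA, occurred between 250 bases before and 50 after the start in 54.7% of the 64 members, 32.4% of the table's genes and 16.7% of all genes. TATAAA in the 40 bases before the start occurred in 1 of the 64 members (1.56%), 1.62% of the table's genes and 2.78% of all genes. These matches describe letters in a window and not binding. The members with a pyrimidine run had a median log2 change with LPS of 0.91 by pre-mRNA and 0.29 by mRNA, and the 31 without one had 0.85 and 0.63.

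Summed over the table a library had 21412968 to 53172133 reads counted as mRNA, of which the members took 81966 to 140307. As pre-mRNA it had 8661271 to 31508394, of which they took 17175 to 48040. The smallest count of any member in any library was 4 for mRNA and 11 for pre-mRNA. Values below are normalized reads, that is, reads divided by the library's size factor. The 2 libraries of a group are called A and B by size factor, separately for each measure, and carry no pool number. All 9 macrophage markers listed were in the table, with 515235 to 837368 summed normalized mRNA reads per library. Of 35 markers of 6 other cell types 20 had a row, and their sum was 6717 to 9816 under IL-10 throughout, 14875 to 23901 under late IL-10, 15321 to 25447 with LPS alone and 7951 to 13767 in untreated cells. The table had no row for any of the 4 B cell markers or for the T cell markers Cd3e, Cd3g and Cd8a, while the T cell list's Cd4, Lck and Cd28 summed to 449 to 762 with LPS and 3341 to 5608 in untreated cells. The 5 dendritic cell markers with a row summed to 9528 to 17955 with LPS and 1363 to 2911 in untreated cells. The part of other cells in the results was not tested, and in bulk RNA fewer cells of a type and less RNA per cell cannot be told apart.

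Mature mRNA levels differed widely among proteins that the ribosome mostly holds in equal number. Per kb of transcript, mean normalized mRNA reads over all 8 libraries ran from 28.5 for Rpl28 and 31.6 for Rpl35 to 13835 for the stalk protein Rplp1 and 14986 for Rpl8, a ratio of 526 between the ends. In reads not scaled to length the highest members were Rpl8 and Rpl4, which lines the exit tunnel, with means of 12753 and 10595. The lowest were Rpl36a with 17.8, Rpl38 with 20.7 and Rpl23a with 24.0.

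Members with more sequence of their own tended to have higher mature levels. The share of a member's 50-base words found in no other annotated gene had a median of 46.4% and a range of 1.35% to 100%, against a median of 97.3% for 75 mitochondrial ribosomal protein genes. For 79 of the 81 members at least 1 annotated processed pseudogene shared such a word. The 14 members with at least 70% unique words had a median of 996 normalized mRNA reads per kb, the 38 members between 30% and 70% had 633, and the 29 under 30% had 149. Across the 81 genes the unique share and the log2 level per kb correlated at r = 0.51 (Pearson) and 0.50 (Spearman), a description over genes that share libraries and sequence. How the authors treated reads that match several places was not given in the sources used here, and its part in these levels was not tested.

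**Figure D1:**
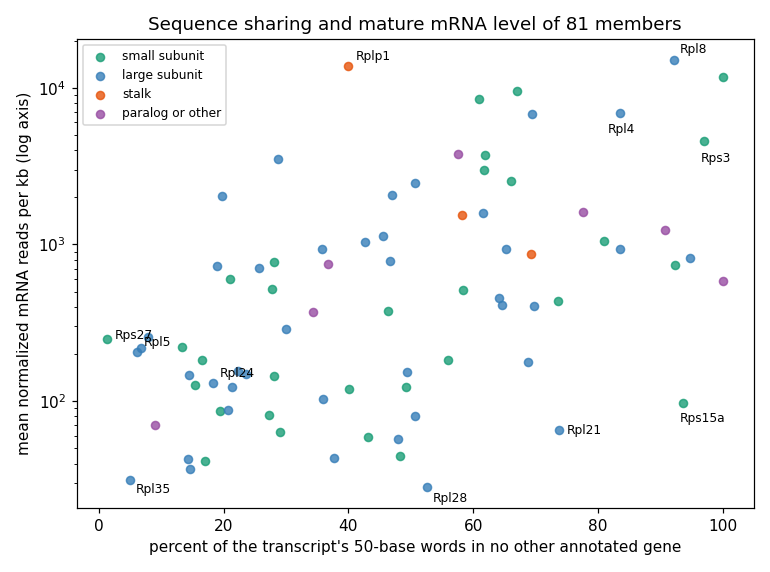
Each point is 1 of 81 members: the x axis gives the percent of its transcript's 50-base words found in no other annotated gene, the y axis (log scale) its mean normalized mRNA reads per kb over 8 libraries, and the colour its role. Rpl8 at 92.1% sits at the top right, and Rpl35, with 31.6 reads per kb, at the lower left.

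The pre-mRNA value exceeded the mRNA value for 38 of 81 members (46.9%), against 31.9% of the table's genes. Of the 29 members with under 30% unique words 22 were in that state, and of the 14 with at least 70% 2 were. Per kb of intron the highest pre-mRNA was that of Rps9 with 615 normalized reads and Rpsa, also known as the laminin receptor precursor, with 575. The annotation placed 58 small nucleolar RNA genes in 30 of the members, and these hosts had a median of 165 pre-mRNA reads per kb of intron against 128 for the other members. The hosts' median log2 change in pre-mRNA with LPS was 0.95, and that of the other members was 0.90. Rps27rt has no intron in the annotation and had the same pre-mRNA values as its parent Rps27 in all 8 libraries, so the pair gives 1 measurement.

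Before any comparison, libraries of one group stood apart in several members. Rps16, a small-subunit protein (chr7:28350652-28353155), had 39.3 and 1156 normalized mRNA reads under IL-10 throughout, 50.7 and 1166 under late IL-10, 1190.1 and 42.0 with LPS alone, and 22.5 and 904 in untreated cells. One library of every group was thus far above the other, while its pre-mRNA libraries lay close together, at 153 and 219 with LPS alone and 96.4 and 93.3 in untreated cells. Rps2 had 186 and 1119 mRNA reads under IL-10 throughout, 118 and 1018 under late IL-10, 986 and 165 with LPS alone, and 88.0 and 1133 in untreated cells. Rps19, mutated in human Diamond-Blackfan anaemia, stood apart mainly in the untreated libraries, with 134 and 77.0 mRNA reads with LPS alone and 49.0 and 1317 in untreated cells. A gap of more than 4-fold between the 2 libraries of at least 1 group occurred in 13 of 81 members by mRNA (4.41% of all genes) and 5 of 81 by pre-mRNA (7.25% of all genes). It occurred in every group for Rps16 and Rps2 by mRNA and for Rpl37rt by pre-mRNA, and for 0.105% of all genes by either measure. The members' median standard error of a log2 change was 0.45 by mRNA, against 0.32 for all genes, and 0.36 by pre-mRNA, against 0.35.

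**Figure D2:**
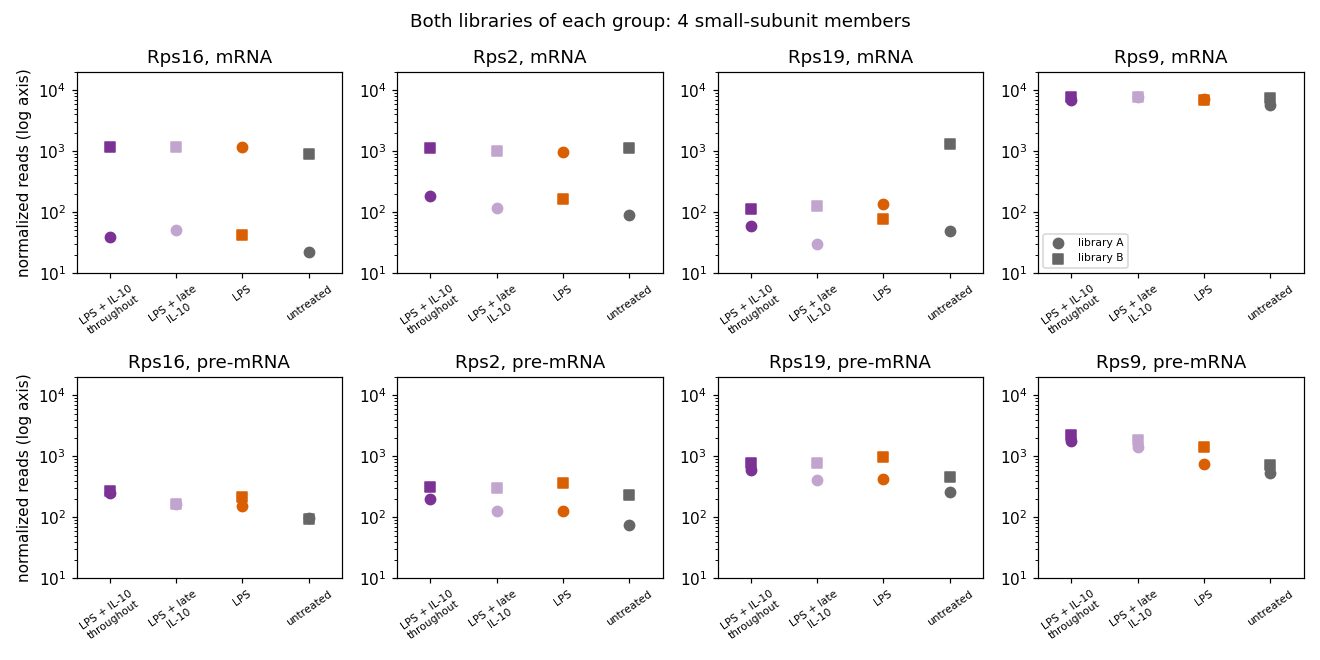
Normalized reads (log axis) of 4 small-subunit members in both libraries of each group, mRNA in the upper row and pre-mRNA in the lower row; circles are library A and squares library B. Rps16 and Rps2 mRNA split into a high and a low library in every group, Rps19 mRNA is at 1317 in one untreated library, and Rps9 mRNA lies between 5756 and 7791 in all 8.

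By pre-mRNA the family also differed as a whole between libraries. Library B was above library A for 66 of 81 members under IL-10 throughout, 74 under late IL-10, 80 with LPS alone and 75 in untreated cells, by a median of 0.33, 0.50, 0.74 and 0.46 on the log2 scale, while the median of all genes differed by 0. The members' share of pre-mRNA reads was 0.183% and 0.269% under IL-10 throughout, 0.113% and 0.205% under late IL-10, 0.0954% and 0.231% with LPS alone, and 0.121% and 0.198% in untreated cells. By this share the groups overlapped. The share of mRNA reads was 0.285% and 0.311%, 0.247% and 0.283%, 0.275% and 0.243% in the 3 LPS-treated groups in the same order, all below the 0.366% and 0.383% of untreated cells.

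**Figure D3:**
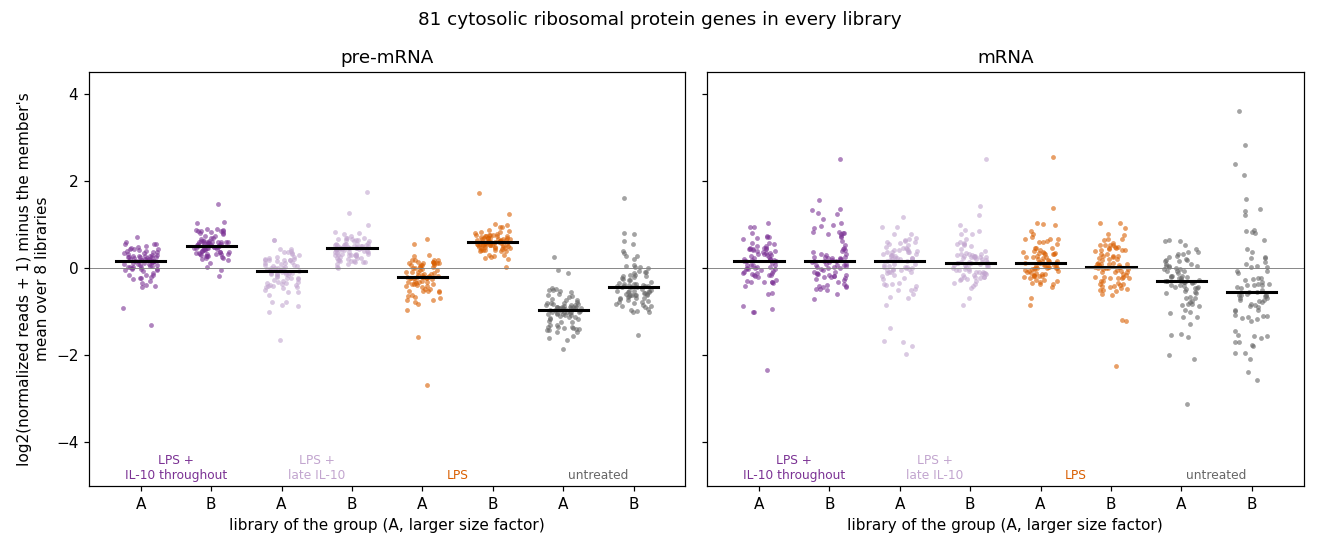
Each point is 1 of 81 members in 1 library, as log2(normalized reads + 1) minus that member's mean over the 8 libraries, for pre-mRNA (left) and mRNA (right); black bars are medians, on the deposited scaling, which the text sets beside scaling to total reads. Untreated pre-mRNA libraries have the lowest medians, library B is the higher of each pre-mRNA pair, and a few mRNA values spread far from 0, most of all in untreated library B.

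The comparison of LPS alone with untreated cells asked what LPS had changed after 195 min. By pre-mRNA, relative to the median gene, ribosomal protein genes were higher with LPS: 32 of 81 rose (39.5%) and 0 fell, with a median log2 change of 0.91, against 22.3% of all 11131 genes rising, 21.7% falling and a median of 0.00. The p-values measure the spread between libraries recovered from the deposited group means, which may be partly technical. The change was above 0 for 76 members (93.8%, against 50.1% of all genes). At an unadjusted p under 0.05 it was higher for 40 and lower for 0, but the share of all genes at that threshold was not counted. Limma-voom called 34 members higher and 0 lower, against 2540 higher and 2449 lower of all 11131 genes. Both LPS libraries lay above both untreated libraries for 53 members (65.4%) and below them for 0, against 36.2% and 36.5% of all genes. The direction depends on the scaling: scaled to total reads, which put the median of all genes at -0.91, the members' median was -0.01 and only Rpl24 rose. Relative to the median gene the members stood 0.90 higher under that scaling and 0.91 higher under the other. A change of scaling shifts all genes of a library alike, so this difference could hardly change and is no second test. On the deposited scaling the members' median was 0.50 without LPS library B and 0.66 without untreated library A. It was 1.35 without LPS library A and 1.16 without untreated library B. The median of all genes in these fits lay between -0.01 and 0.01. The calls depended on single libraries: 10 of the 32 were called in each of the 8 fits that left out 1 library.

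Of the 30 small-subunit genes 13 rose by pre-mRNA, with a median of 0.90. Rps24 (chr14:24487125-24496959) had 1351 and 1367 normalized pre-mRNA reads with LPS alone and 410.2 and 460.5 in untreated cells, a log2 change of 1.64 ± 0.21 (SE, n = 2 libraries per group, adjusted p = 0.00081). Rps15a had 1056 and 1310.5 reads with LPS and 328 and 440.1 in untreated cells, a change of 1.63 ± 0.23 (adjusted p = 0.0014). The groups overlapped in neither gene: both LPS libraries lay above both untreated ones. Rps6, the substrate of S6 kinase, had 263 and 506 with LPS against 128 and 195 (1.20 ± 0.38, adjusted p = 0.036), and its call was lost in 5 of the 8 fits that left out 1 library. Rps3, which in human cells also has roles in DNA repair and NF-κB binding, had 759 and 1769 with LPS alone and 623 and 2183 in untreated cells. Its groups overlapped, with a change of -0.01 ± 0.81 (adjusted p = 0.99). Rpsa (0.32 ± 0.57, adjusted p = 0.67) and Rps19 (0.90 ± 0.49, adjusted p = 0.17) did not pass the threshold either.

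Of the 41 large-subunit genes 17 rose by pre-mRNA, with a median of 0.99. Rpl24 (chr16:55966275-55971435), whose start window holds no pyrimidine run, had 1356 and 1375 normalized pre-mRNA reads with LPS alone and 329.7 and 291 in untreated cells. The change of 2.14 ± 0.28 (adjusted p = 0.00096) was the largest of the 81. It was also called in each of the 8 other fits, total-read scaling included (1.22, adjusted p = 0.0089), and in each of the 8 that left out a library. Rpl26, which in human cells binds p53 mRNA, had 365 and 572 with LPS against 105 and 175 in untreated cells (1.75 ± 0.35, adjusted p = 0.0055). Rpl4 had 569.9 and 771 with LPS against 205 and 249 (1.55 ± 0.23, adjusted p = 0.0017). In all 3 genes the higher untreated library stayed below the lower LPS library. Rpl5 and Rpl11 form with 5S ribosomal RNA a particle that can bind the p53 regulator MDM2. Rpl5 had 1333 and 1876 with LPS against 728 and 697 in untreated cells and rose by 1.15 ± 0.24 (adjusted p = 0.0066). Rpl11 had 234 and 410.3 against 147 and 230.2 and did not pass (0.75 ± 0.44, adjusted p = 0.20).

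Other large-subunit members did not pass the threshold. Rpl3, close to the peptidyl transferase centre, had 974 and 1617 pre-mRNA reads with LPS alone and 1281 and 1349 in untreated cells, so that the groups overlapped (-0.07 ± 0.32, adjusted p = 0.88). Rpl13a, which in human myeloid cells leaves the ribosome to silence inflammatory mRNAs, had 174 and 372 with LPS against 161 and 240.4 (0.37 ± 0.43, adjusted p = 0.50). Rpl39 had 179 and 251 with LPS against 101 and 146 in untreated cells, with no overlap but an adjusted p of 0.071 (0.80 ± 0.31).

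Of the 3 stalk proteins, which recruit the elongation factors, Rplp2 alone passed by pre-mRNA, with 359.6 and 559 reads with LPS and 207 and 283 in untreated cells (0.89 ± 0.30, adjusted p = 0.043). Its call was lost in 7 of the 8 fits that left out 1 library. Rplp0 (1.12 ± 0.65, adjusted p = 0.19) and Rplp1 (0.56 ± 0.61, adjusted p = 0.48) had larger errors. Of the 7 paralogs and others 1 passed, Rpl22l1, a paralog of Rpl22, with 189 and 267 with LPS and 79.4 and 109 in untreated cells (1.26 ± 0.30, adjusted p = 0.012). Rpl22, needed in mice for T cell development, had 288 and 543 with LPS and 260.5 and 370.1 in untreated cells (0.35 ± 0.37, adjusted p = 0.46). The p53 target Rps27l (-0.44 ± 0.44, adjusted p = 0.44), the SIRT1 regulator Rps19bp1 (0.11 ± 0.54, adjusted p = 0.89) and Rpl7l1 (0.39 ± 0.23, adjusted p = 0.20) did not pass.

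**Figure D4:**
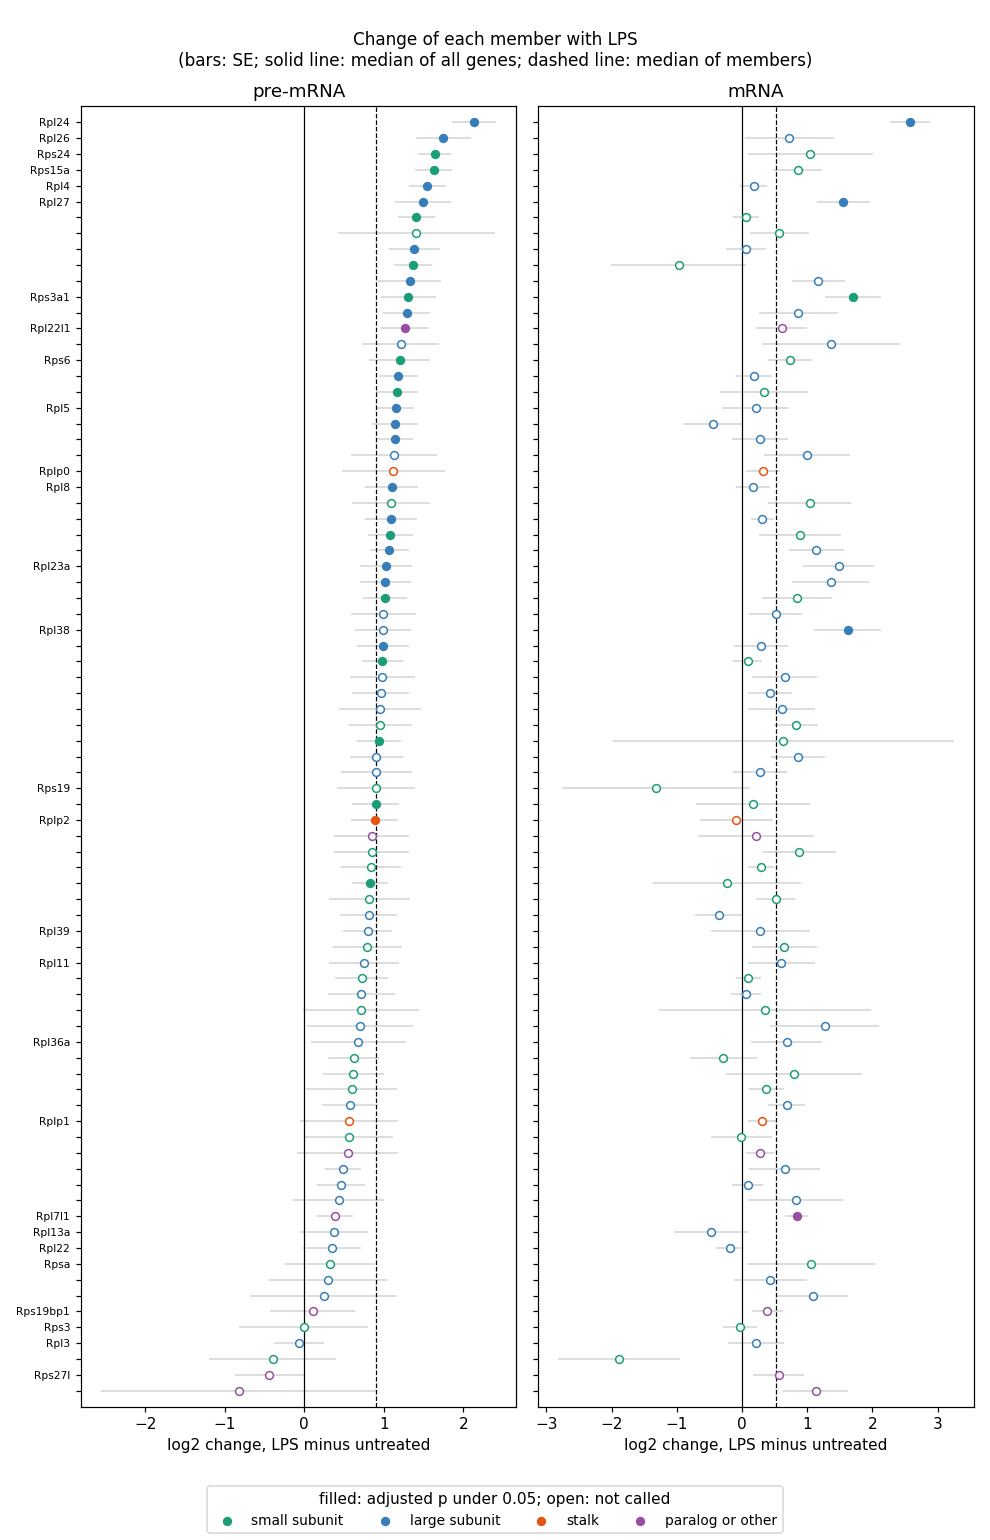
Log2 change of each of 81 members, LPS alone minus untreated, for pre-mRNA (left, by which the rows are sorted) and mRNA (right); points are coloured by role, filled where called and open where not, with bars of 1 SE, and the symbols of members chosen by the naming rule stand beside their rows. By pre-mRNA 32 points are filled and the members' median (dashed) is 0.91, and by mRNA 5 are filled and it is 0.52; scaled to total reads these medians are -0.01 and -0.23.

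By mature mRNA few members passed the test: 5 of 81 rose with LPS (6.17%) and 0 fell, against 19.2% of all 11415 genes rising and 16.5% falling. The members' median change was 0.52 and that of all genes 0.01, and 69 members were above 0. The LPS libraries lay above both untreated libraries for 29 members (35.8%, against 34.7% of all genes) and below both for 1, Rps21 (1.23%, against 34.2%). Under total-read scaling, which put the median of all genes at -0.74, the members' median was -0.23, and 1 member rose, Rpl24, while 5 fell, among them Rpl22, Rps14, Rpl4 and Rps21. Relative to the median gene the members stood 0.51 higher under both scalings, a difference that a change of scaling could hardly alter. How many members were called depended on which library was left out. On the deposited scaling their median was 0.40 without LPS library A and 0.41 without LPS library B. It was 0.66 without untreated library A and 0.37 without untreated library B. The median of all genes in these fits lay between 0.01 and 0.02.

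The 5 members that rose were mostly of low level. Rpl24 had 124 and 106 normalized mRNA reads with LPS alone and 17.2 and 19.9 in untreated cells, a change of 2.57 ± 0.31 (adjusted p = 0.0013) that was called in each of the 16 other fits. Rps3a1, of the small subunit, had 65.9 and 93.8 with LPS against 31.8 and 17.4 (1.70 ± 0.43, adjusted p = 0.021). Rpl38, which in mice promotes translation of Hox mRNAs, had 28.9 and 19.6 against 9.92 and 4.96 (1.62 ± 0.52, adjusted p = 0.048), and Rpl27 had 74.2 and 71.4 against 31.1 and 18.6 (1.56 ± 0.41, adjusted p = 0.025). These 4 have 18.3% to 47.9% unique words. Rpl7l1, related to a yeast factor that helps build the large subunit, was the exception, with 3664 and 3077 reads with LPS against 1918 and 1829.5 in untreated cells (0.84 ± 0.18, adjusted p = 0.012). The calls of Rpl38, Rpl27, Rps3a1 and Rpl7l1 were each lost when at least 1 library was left out, Rpl38's in 7 of 8 fits.

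For the abundant members Rpl4 and Rpl8 the mRNA values of the 2 groups overlapped on the deposited scaling. Rpl4 had 10724 and 11169.5 normalized mRNA reads with LPS alone and 8334 and 11197 in untreated cells (0.18 ± 0.21, adjusted p = 0.53), and Rpl8 had 13575 and 12628 against 9118 and 14746 (0.18 ± 0.26, adjusted p = 0.64). In both genes the untreated libraries spanned the LPS ones. The stalk genes Rplp0 (0.32 ± 0.26, adjusted p = 0.37), Rplp1 (0.31 ± 0.21, adjusted p = 0.29) and Rplp2 (-0.09 ± 0.56, adjusted p = 0.92) did not pass, nor did Rps6 (0.73 ± 0.34, adjusted p = 0.13), Rpl5 (0.21 ± 0.52, adjusted p = 0.79) or Rpl11 (0.60 ± 0.51, adjusted p = 0.39). The values of Rps19 (-1.32 ± 1.44), Rpsa (1.06 ± 0.98) and Rpl13a (-0.48 ± 0.57) carried wide errors, with adjusted p from 0.44 to 0.55. Rpl22 (-0.19 ± 0.21, adjusted p = 0.52), Rpl22l1 (0.61 ± 0.40, adjusted p = 0.27), Rps27l (0.56 ± 0.39, adjusted p = 0.30) and Rps19bp1 (0.39 ± 0.24, adjusted p = 0.24) did not pass by mRNA either.

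The pre-mRNA change exceeded the mRNA change by a median of 0.36 over the members, against -0.02 over all genes. In one fit of both measures the difference was higher for 7 members and lower for 0 at an unadjusted p under 0.05. The share of all genes at that threshold was not counted. At an adjusted p under 0.05 it was higher for 1 of 81 members (1.23%), against 0.162% of all genes called higher and 1.08% called lower. That call was lost in each of the 8 fits that left out 1 library. The members' median difference was -0.02 without LPS library B and -0.01 without untreated library A. Since A and B are set separately in each measure, a fit without 1 letter can leave out different pools in mRNA and pre-mRNA. Both measures were read from the same RNA, which the fit does not take into account. For Rpl4 the difference was 1.37 ± 0.30 (adjusted p = 0.050, just above the threshold). Over the 81 genes the 2 changes correlated at r = 0.30 (Pearson) and 0.22 (Spearman), with all points sharing the same libraries.

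The comparisons with IL-10 asked whether IL-10 altered the LPS response. Limma called 0 of 81 members by either measure with IL-10 throughout, with late IL-10, or between the 2 schedules, and limma-voom called 0 in each. For IL-10 throughout against LPS alone the mRNA of 1.19% of all genes rose and of 1.05% fell, and the pre-mRNA of 2.44% rose and of 4.26% fell. For late IL-10 these shares were 0% and 0% by mRNA and 0.979% and 0.0629% by pre-mRNA, and for IL-10 throughout against late IL-10 0.517% and 0.569% by mRNA and 0.755% and 2.2% by pre-mRNA. Without adjustment 1 member was higher and 1 lower in pre-mRNA at p under 0.05 for IL-10 throughout against LPS. Between the schedules 1 was higher in pre-mRNA, and 0 differed in the other comparisons. The share of all genes at this unadjusted threshold was not counted. By mRNA, and with late IL-10 against LPS by either measure, the shares called after adjustment are so low that 0 of 81 is near the background. By pre-mRNA with IL-10 throughout, against LPS or late IL-10, 0 of 81 lies below the shares of all genes. Whether the members differ from all genes was not tested.

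Both libraries of the first-named group lay above both of the other by mRNA for 8 members with IL-10 throughout against LPS (9.88%, against 20.6% of all genes), 2 with late IL-10 against LPS (2.47%, against 6.18%) and 10 between the schedules (12.3%, against 20.5%). They lay below for 5 (6.17%, against 21.3%), 1 (1.23%, against 5.96%) and 5 (6.17%, against 20.8%). By pre-mRNA they lay above for 5 (6.17%, against 24.4%), 2 (2.47%, against 13.1%) and 14 (17.3%, against 26%), and below for 2 (2.47%, against 25.6%), 1 (1.23%, against 14.1%) and 4 (4.94%, against 27.1%). In each of these the members' share was under that of all genes. Within groups, pre-mRNA library B was above library A by a median of 0.33 to 0.74 on the log2 scale, against 0 for all genes. By mRNA the members' median standard error was 0.45, against 0.32. The part of this spread in the overlap was not tested.

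The members' median change was 0.01 by mRNA in each of the 3 comparisons, and by pre-mRNA 0.11 with IL-10 throughout, -0.05 with late IL-10 and 0.14 between the schedules. For all genes these pre-mRNA medians were 0.00, -0.05 and 0.00. Single members lay between -0.69 and 0.90 by mRNA and between -0.64 and 1.11 by pre-mRNA. The 3 comparisons share the LPS or IL-10 libraries. The pre-mRNA median with IL-10 throughout was 0.54 without LPS library B, where Rps9 was called higher, and -0.28 without LPS library A. With late IL-10 it was 0.32 and -0.43 in the same fits. Without late IL-10 library A the median between the schedules was -0.11, and without late IL-10 library B it was 0.40. Scaled to total reads the medians with IL-10 throughout against LPS were 0.28 by mRNA and 0.57 by pre-mRNA, with the median of all genes at 0.25 and 0.46; relative to the median gene the members stood 0.03 and 0.11 higher.

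The 3 members past an unadjusted p of 0.05 were picked after their values were seen. Rps9, of the small subunit, had pre-mRNA values of 1756 and 2204 under IL-10 throughout, 1411 and 1823 under late IL-10, 749.7 and 1399.5 with LPS alone, and 530.0 and 727 in untreated cells. Both IL-10 throughout libraries lay above both LPS libraries (0.94 ± 0.34, adjusted p = 0.15), while its mRNA was between 6843 and 7791 in the 6 LPS-treated libraries. Rps24 pre-mRNA was lower with IL-10 throughout, at 1019 and 893 against 1351 and 1367 with LPS alone (-0.51 ± 0.21, adjusted p = 0.20). Rps16 pre-mRNA was at 251 and 275 under IL-10 throughout, against 165 and 168 under late IL-10 (0.65 ± 0.28, adjusted p = 0.23).

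By pre-mRNA and on the deposited scaling, most members lay above untreated cells in the LPS-treated groups with IL-10, as with LPS alone. By pre-mRNA both libraries were above both untreated libraries for 66 of 81 members with IL-10 throughout (81.5%, against 34.1% of all genes) and for 57 with late IL-10 (70.4%, against 37.4%). They were below them for 0 members, against 35.6% and 37.5% of all genes. These counts were not made under scaling to total reads, and by their share of pre-mRNA reads the groups overlapped. By mRNA both libraries were above both untreated libraries for 30 members with either schedule (37%), near the 32.2% and 34.4% of all genes. By mRNA 0 lay below (against 32% and 34.3%). All of these counts use the same untreated libraries.

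**Figure D5:**
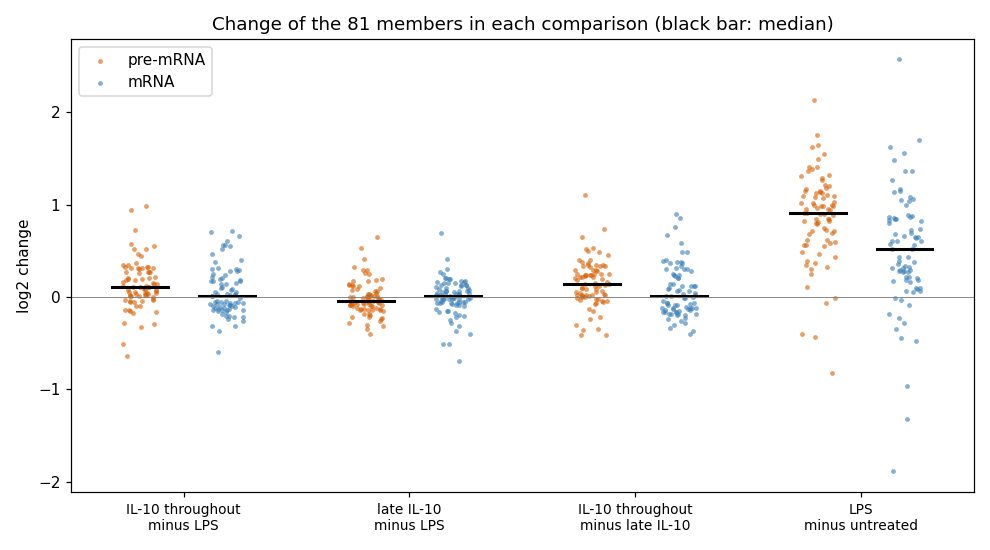
Log2 change of the 81 members (points) with their median (black bar) in each of 4 comparisons, for pre-mRNA and mRNA. In the 3 comparisons with IL-10 the medians lie between -0.05 and 0.14, and in LPS minus untreated at 0.91 by pre-mRNA and 0.52 by mRNA (-0.01 and -0.23 when scaled to total reads).

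Of 3 subunits tested outside the symbol rule 1 rose by mRNA and 1 by pre-mRNA, and 0 fell; scaled to total reads 0 were called. Values are given for Gnb2l1 and Fau, of which neither rose by mRNA. Gnb2l1, the scaffold protein RACK1 of the small subunit, had 1108 and 1456 pre-mRNA reads with LPS alone and 523 and 673 in untreated cells and rose by 1.10 ± 0.23 (adjusted p = 0.0074), and its mRNA did not pass (0.19 ± 0.22, adjusted p = 0.52). Fau passed by neither measure (0.35 ± 0.40 by mRNA and 0.72 ± 0.36 by pre-mRNA, adjusted p = 0.52 and 0.14).

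Other lists of the translation machinery stand here against the same shares of all genes called with LPS, 19.2% higher and 16.5% lower by mRNA and 22.3% and 21.7% by pre-mRNA. No difference between a list and the members was tested. The lists share genes, so their counts are not independent: several initiation factors, Eif4b among them, also stand in the TOP list. Of 27 other TOP mRNAs 14 of 26 tested rose by pre-mRNA (53.8%) and 0 fell, with a median of 1.03, among them Pabpc1, the poly(A)-binding protein (2.15 ± 0.32, adjusted p = 0.0015), and Eef1g, an elongation factor subunit (1.46 ± 0.20, adjusted p = 0.0011). By mRNA 3 rose (11.1%) and 1 fell (3.7%), with Eef1g at 1.06 ± 0.25 and the initiation factor Eif4b at -0.81 ± 0.16 (adjusted p = 0.016 and 0.010). Of 49 ribosome biogenesis genes 20 rose by mRNA (40.8%) and 0 fell (median 0.69), and of 48 tested by pre-mRNA 13 rose (27.1%) and 0 fell (median 0.61). Rrs1, a large-subunit assembly factor, had 5416 and 3926 mRNA reads with LPS against 357 and 417 in untreated cells, a change of 3.58 ± 0.28 (adjusted p = 0.00026). Among 39 initiation factors the mRNA of 19 rose (48.7%) and of 1, again Eif4b, fell (median 0.67). The pre-mRNA of 20 rose (51.3%) and of 0 fell (median 0.74), with Eif6, which keeps the subunits apart, at 1.78 ± 0.23 by mRNA.

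Mitochondrial ribosomal protein genes gave calls in both directions, at shares below those of all genes. The mRNA of 7 of 75 rose (9.33%) and of 4 fell (5.33%, median 0.06), and the pre-mRNA of 8 rose (10.7%) and of 9 fell (12%, median -0.02), with Mrpl39 at 1.92 ± 0.33 and Mrps35 at -1.70 ± 0.35 by mRNA. The difference between the 2 families was not tested.

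Among 22 genes of TOP control, mTORC1 and MYC the mRNA of 6 rose (27.3%) and of 2 fell (9.09%), and the pre-mRNA of 8 rose (36.4%) and of 2 fell (9.09%). Larp1 rose to 21082 and 27502 mRNA reads with LPS, against 4345 and 5701 in untreated cells (2.27 ± 0.23, adjusted p = 0.00073). Myc, the transcription factor that drives ribosome synthesis, had 1362 and 595 with LPS against 177 and 442 and did not pass (1.68 ± 0.62, adjusted p = 0.072). Eif4ebp2, a translation repressor that mTORC1 inactivates, fell, with a log2 change of -1.57 ± 0.24 by mRNA (adjusted p = 0.0037) and -1.85 ± 0.20 by pre-mRNA (adjusted p = 0.00041). Scaled to total reads, a count made after seeing the data, 10.5% of all genes were called higher and 39.4% lower by mRNA, and 11.1% and 42.1% by pre-mRNA. Of the other TOP mRNAs 0 were then higher and 6 lower by mRNA and 2 and 2 by pre-mRNA, of the ribosome biogenesis genes 7 and 4 by mRNA and 4 and 5 by pre-mRNA, and of the initiation factors 6 and 9 by mRNA and 5 and 2 by pre-mRNA. For the mitochondrial genes these counts were 2 and 25 by mRNA and 2 and 24 by pre-mRNA, and for TOP control, mTORC1 and MYC 3 and 6 by either measure. In the comparisons with IL-10 limma called 0 genes of these lists apart from 1 ribosome biogenesis gene lower between the schedules by pre-mRNA (Sdad1, -0.91 ± 0.19), and 1 mitochondrial gene higher (Mrpl18) and 1 lower (Mrpl30) with IL-10 throughout by pre-mRNA.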

How the data were processed

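Ribosome-depleted total RNA was sequenced with a strand-specific kit, per the labels' protocols. Trim Galore, DESeq and the build mm10 are named in the submitters' processing notes; not given in the sources used here: the aligner, the counter, the annotation, the treatment of reads with several matches and how pre-mRNA was told from mRNA. The deposited table gives, per gene, group and measure, a normalized signal that the authors averaged over the 2 libraries of a group. Both libraries' whole reads and size factors could be recovered from these means for 100% of values (relative tolerance 1e-13), so every value per library here is a reconstruction. The larger size factor defines library A.

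The main test was limma-trend (limma 3.58.1, R 4.3.3) on log2(normalized reads + 1), which understates changes of low genes, with all 4 groups of a measure in 1 fit and genes with a mean of at least 1. Benjamini-Hochberg adjustment ran over all genes, with a threshold of 0.05. A count test had been planned but the table holds no counts. Recovery and fits were tested on simulated data. Alternatives were pseudocounts of 0.5 and 8, a mean of at least 10, no filter, scaling to total reads, TMM, limma-voom on the recovered reads, the compared groups alone, and leaving out each library or the paralogs. Python 3.11.15, numpy 2.4.6, pandas 2.3.3 and mpmath 1.4.1 were used. Unique 50-base words, gene positions and small nucleolar RNAs came from the GENCODE vM21 annotation of GRCm38, and start windows from a RefSeq table.

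The members and gene lists were chosen with earlier results of these data known. Named were the 5 largest called changes in each direction, the 3 highest and 3 lowest members by mRNA, 18 fixed members, Gnb2l1, Fau, Larp1 and Myc, and up to 3 genes of each other list. Values of some genes under this rule are not reported here; all counts include every member. Members named for their level per kb, their intron signal, the gap between their libraries or a loss of calls were chosen after their values were seen.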

Additional observations from a re-analysis of the deposited data

How the results depend on the processing

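No paired analysis was possible because the columns carry no replicate number. Any difference between pools that recurs across groups thus stayed in the errors and p-values. Scaling to total reads had the widest effect: with LPS against untreated cells it gave 6 calls by mRNA (1 higher, 5 lower) with a median of -0.23 and 1 call by pre-mRNA with a median of -0.0064, and it turned the changes of Rpl4 mRNA (-0.57) and Rplp2 pre-mRNA (-0.029). Under it the medians of IL-10 throughout were 0.28 by mRNA and 0.57 by pre-mRNA against LPS, and 0.28 and 0.58 against late IL-10. With the compared groups alone in the fit 2 members were called by mRNA and 21 by pre-mRNA for LPS against untreated cells, all higher. Of all 11415 genes 1972 were then higher and 1600 lower by mRNA, and of 11131 by pre-mRNA 2006 and 2132. Among the 34 members with at least 50% unique words, a choice made after seeing the data, 1 was called by mRNA and 11 by pre-mRNA, and the mRNA medians were -0.065 for IL-10 throughout against LPS, 0.058 for late IL-10 against LPS and -0.086 between the schedules; leaving out Rps27rt and Rpl37rt, also chosen after seeing the data, left the calls at 5 and 32. Leaving out 1 library gave 2 to 13 calls by mRNA and 11 to 37 by pre-mRNA for LPS against untreated cells, and 0 to 1 for IL-10 throughout against LPS by pre-mRNA. In those fits the medians ran from 0.011 to 0.072 by mRNA and from -0.28 to 0.54 by pre-mRNA for IL-10 throughout against LPS, from -0.018 to 0.017 by mRNA for late IL-10 against LPS, and from -0.11 to 0.40 by pre-mRNA between the schedules. The pre-mRNA change exceeded the mRNA change for 2 members with a mean of at least 10 or no filter, for 0 under total-read scaling, limma-voom or the compared groups alone, and for 0 to 1 when 1 library was left out. The cause of these differences was not tested. Named members' values kept their side of the threshold in 698 cases, of which 45 were uncalled changes that turned sign, lost the call in 50, gained it in 2, and turned sign with a call in 2. The 47 turns of sign came from total-read scaling (23) and from leaving out 1 library (24). With 2 libraries a group and members with as few as 4 reads, small changes were not detectable.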
